A study of Rattus norvegicus with 18 samples.

Results

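The comparison described here is between the hypothalamus of rats labelled RYGB-Success and the hypothalamus of rats labelled RYGB-Fail. Its 6 arrays, 3 in each group, were taken by their titles from the 18 arrays of the study. RYGB abbreviates Roux-en-Y gastric bypass, in which surgeons divide the stomach and connect the small upper pouch directly to the jejunum, so that food skips the rest of the stomach and the duodenum. RYGB-Success stands for rats that lost weight after the bypass, and RYGB-Fail for rats that gained weight. The remaining group, Pair-Fed, received the amount of food that the treated rats ate. Each group had 3 RNA samples from hypothalamus and 3 from subcutaneous abdominal fat, described by the labels as biological replicates. The labels name no strain, sex, age, diet or time after surgery, and do not say how many rats stand behind a sample or whether the Pair-Fed rats had a sham operation. P-values therefore measure the spread between these RNA samples, of which there were 3 in a group.

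The hypothalamus sets hunger, satiety and energy use. Its arcuate nucleus reads leptin, insulin and gut hormones through neurons that make the appetite-driving peptides NPY and AgRP or the appetite-suppressing products of the Pomc and Cartpt genes. Its lateral part holds neurons that make orexin (Hcrt) and melanin-concentrating hormone (Pmch), both of which promote feeding and arousal. The question put by the design is whether gene expression in this region differs between operated rats that lost weight and operated rats that gained weight.

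Expression was read on a rat array that measures each gene with 1 or more probe sets, and the deposited value of a probe set is a linear signal intensity. Median signals on the 9 hypothalamus arrays ran from 91.1 to 127. The tissue label held: Snap25, a protein of nerve terminals, read 13279 to 25290 in hypothalamus and 52.0 to 1089 in fat, whereas Adipoq, the hormone adiponectin of fat cells, read 86.0 to 410 in hypothalamus and 17271 to 60117 in fat. Pmch, made almost only in the lateral hypothalamus, read 2101 to 20005 in hypothalamus and at most 88.7 in fat. The pituitary hormones Gh1 and Prl stayed at or below 53.5 and 51.0 on all 9 hypothalamus arrays. No array stood apart by every measure. RYGB-Success replicate 3 had the lowest array weight, the weight limma gives an array by how well it matches its own group (0.331), and the lowest 3' to 5' control ratios for beta-actin (6.65) and GAPDH (1.58). RYGB-Success replicate 2 had the highest median signal (127), and these 2 arrays had the lowest median correlation with the other hypothalamus arrays (0.869 and 0.867). Pair-Fed replicate 2 had the highest beta-actin ratio (179). Where leaving out 1 array moved a printed change of a gene by over 1.5 times and that change was larger than its SE, the value without it is given.

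A single gene passed the test between RYGB-Success and RYGB-Fail, and it was lower in RYGB-Success. This gene was Pkig, which encodes the gamma form of the protein kinase inhibitor, a small protein that binds and blocks the catalytic subunit of protein kinase A. Its probe set (the only one of the gene on the array) read 1986, 3074 and 1734 in RYGB-Success replicates 1 to 3. The 3 RYGB-Fail arrays read 8261, 7193 and 7655, and the 3 Pair-Fed arrays read 8352, 10095 and 9360. Every RYGB-Success array therefore lay well under every array of the other groups, and RYGB-Fail lay close to Pair-Fed. The log2 change of RYGB-Success minus RYGB-Fail was -1.81 ± 0.21 (SE, n = 3 arrays per group, limma, adjusted p = 0.0116), a 3.50-fold lower signal. Over all 18625 probe sets tested, 1 passed an adjusted p of 0.05 (0.00537%), and 1120 (6.01%) had an unadjusted p under 0.05, of which 415 were higher and 705 lower in RYGB-Success. The number that passed was 6 without RYGB-Success replicate 2, and 0 without any single RYGB-Fail array.

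The size of the Pkig change held in every alternative analysis, from -2.05 to -1.64 on the log2 scale, but its call did not. It passed the threshold in 14 of 22 alternatives. The adjusted p from limma rose to 0.0970, 0.0782 and 0.132 without RYGB-Fail replicate 1, 2 or 3, to 0.0503 without RYGB-Success replicate 1, and to 0.592 without a mean-variance trend. Without RYGB-Success replicate 3, the array of lowest weight, the change was -1.64 (adjusted p = 0.0123).

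**Figure D1:**
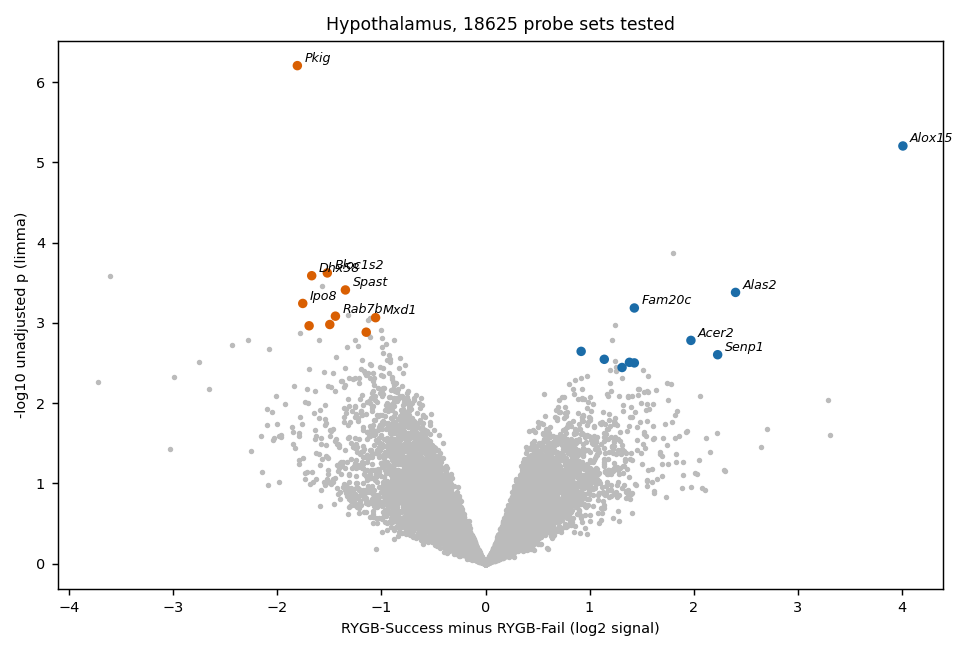
Each point is 1 of the 18625 probe sets tested in hypothalamus, with the log2 change of RYGB-Success minus RYGB-Fail on the horizontal axis and -log10 of limma's unadjusted p on the vertical axis. Blue and orange points are the 10 higher and 10 lower named genes that lead the comparison (those farthest out carry names, and grey points include probe sets with no gene symbol); Pkig on the left passed after adjustment, and Alox15 on the far right, at 4.01, came next.

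Protein kinase A is the main effector of cyclic AMP in neurons. It is a complex of regulatory and catalytic subunits, and the inhibitor family to which Pkig belongs acts on the released catalytic subunit. Of 24 genes listed for these subunits, inhibitors and the surrounding cyclic AMP pathway, all 24 were tested, 13 were higher and 11 lower in RYGB-Success, and Pkig alone passed. The median change of this list was 0.021, next to 0.025 over all 10438 genes tested. The other inhibitors did not share the Pkig pattern. Pkia, the alpha inhibitor, read 10064, 10516 and 13832 in RYGB-Success and 12048, 8505 and 8580 in RYGB-Fail, so that the groups overlapped (0.25 ± 0.18). Leaving out 1 array moved this to between 0.10 and 0.41. Pkib, the beta inhibitor, changed by 0.015 ± 0.37, with a range of 164 to 217 in RYGB-Success inside that of 130 to 271 in RYGB-Fail.

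The subunits that Pkig acts on or beside also missed the test. The catalytic subunit genes Prkaca and Prkacb gave 0.12 ± 0.19 and 0.058 ± 0.16. Prkacb kept within 5940 to 6812 over the 6 arrays compared. The regulatory subunit genes gave 0.24 ± 0.16 for Prkar1a, 0.46 ± 0.24 for Prkar1b, 0.027 ± 0.22 for Prkar2a and -0.41 ± 0.26 for Prkar2b, with adjusted p-values from limma between 0.784 and 0.983. Without RYGB-Success replicate 3 the change of Prkar1b was 0.30, and leaving out 1 array moved Prkar2b to between -0.62 and -0.080. Dimmer probe sets of Pkia (-0.52) and Prkacb (-0.79) and a further probe set of Prkar1a (-0.033) went against the sign of the ones described. These 8 relatives were chosen after the Pkig value had been seen.

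**Figure D2:**
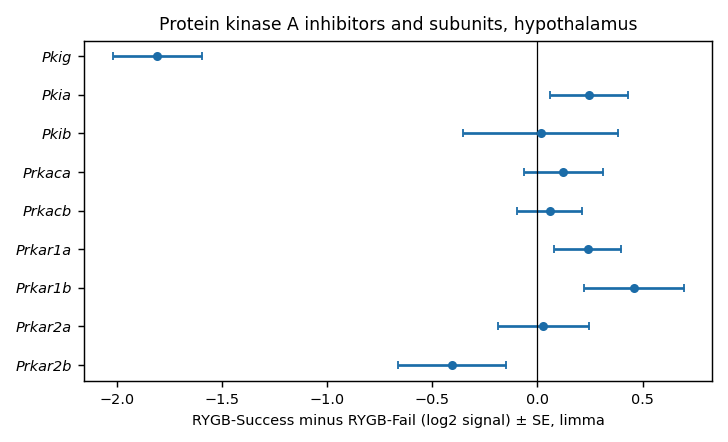
Log2 change of RYGB-Success minus RYGB-Fail in hypothalamus (point) with its standard error from limma (bar, 3 arrays per group) for the protein kinase A inhibitors and subunits. Pkig lies at -1.81, while the other 8 genes lie between -0.41 and 0.46.

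The largest change among the leading genes was that of Alox15, which narrowly missed the threshold. Alox15 encodes arachidonate 15-lipoxygenase, an enzyme that oxidises polyunsaturated fatty acids and is known from maturing red cells and some leukocytes. It read 1453, 456 and 1554 in RYGB-Success. In RYGB-Fail it read 101, 30.4 and 79.4, and in Pair-Fed 96.1, 34.2 and 34.2. The lowest RYGB-Success array thus lay far above the highest array of either other group. The log2 change from RYGB-Fail was 4.01 ± 0.57 (limma, adjusted p = 0.0582), a 16.1-fold difference, or 13.4-fold when the arrays under the lowest mean signal tested (52.7) are set to that value. The adjusted p fell under 0.05 in 9 of 21 alternatives, among them a pseudocount of 50 (0.00624), no filter on dim probe sets (0.0436) and quantile normalization (0.0382), and the change ranged from 2.75 to 4.59 over all of them. Without RYGB-Success replicate 3 it was 3.70 (adjusted p = 0.448).

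Genes of red cells were likewise brightest in RYGB-Success. Alas2, the red cell form of the first enzyme of haem synthesis, read 382, 279 and 385 in RYGB-Success, 113, 49.1 and 49.99 in RYGB-Fail, and 88.7, 30.4 and 22.5 in Pair-Fed (2.40 ± 0.52, limma, adjusted p = 0.784). Hbb, a beta chain of haemoglobin, read 13411, 12195 and 24317 in RYGB-Success against 3348, 6429 and 7958 in RYGB-Fail (1.51 ± 0.44). Hba-a3, an alpha chain, read 293, 249 and 324 against 83.8, 76.6 and 187 (1.43 ± 0.40). None of the 3 passed. The 2 operated groups did not overlap for any of them, although 1 Pair-Fed array read 12362 for Hbb. For a place among the leading genes, which Alas2 and Hba-a3 hold, that absence of overlap was a condition. Non-overlap alone was common: it held for 1130 of the 10438 genes tested (10.8%), with RYGB-Success higher in 630 (6.04%) and lower in 500 (4.79%).

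Of 11 red cell markers listed, 6 were on the array and only Hbb and Alas2 were bright enough to be tested. Among the other 4, Slc4a1, the anion exchanger of the red cell membrane, had a geometric mean of 94.3 in RYGB-Success, 7.9 in RYGB-Fail and 6.8 in Pair-Fed. Ahsp, a chaperone of alpha globin, had 80.7, 17.4 and 42.9. Epb42, a membrane skeleton protein, had 45, 17.4 and 32.8, and Hemgn had 39.3, 41.4 and 43.1. The mean log2 level of all 6 markers was 7.85, 7.74 and 7.44 on the RYGB-Success arrays, 5.45, 5.75 and 6.33 on the RYGB-Fail arrays and 6.55, 5.87 and 5.81 on the Pair-Fed arrays, so this level separated RYGB-Success from the 2 other groups without overlap. With it as a covariate, an analysis added after the data were seen, Pkig changed by -1.69 ± 0.59 (adjusted p = 0.891 in limma) and Alox15 by 2.75 ± 1.52 (adjusted p = 0.891). The covariate follows the groups, and its part in these changes and that of the group cannot be told apart. In RNA from whole tissue, fewer cells of a type and less RNA per cell cannot be told apart either.

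Neutrophil genes were high on several RYGB-Success arrays but spread widely. S100a8, a subunit of the neutrophil protein calprotectin, read 121, 614 and 1397 in RYGB-Success and 6.24, 230 and 76.9 in RYGB-Fail (3.29 ± 1.09, or 1.82 without RYGB-Fail replicate 1), and S100a9, its partner, gave 1.54 ± 0.66, or 0.90 to 2.37 with 1 array left out. Both groups overlapped for either gene, and neither gene passed. Of 12 leukocyte markers listed, 8 were tested, 5 were higher in RYGB-Success and none passed. On the RYGB-Success arrays their mean log2 level stood at 7.66, 8.23 and 8.83, and on the RYGB-Fail arrays at 6.90, 8.24 and 7.58. Their part in the Alox15 value was not tested.

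**Figure D3:**
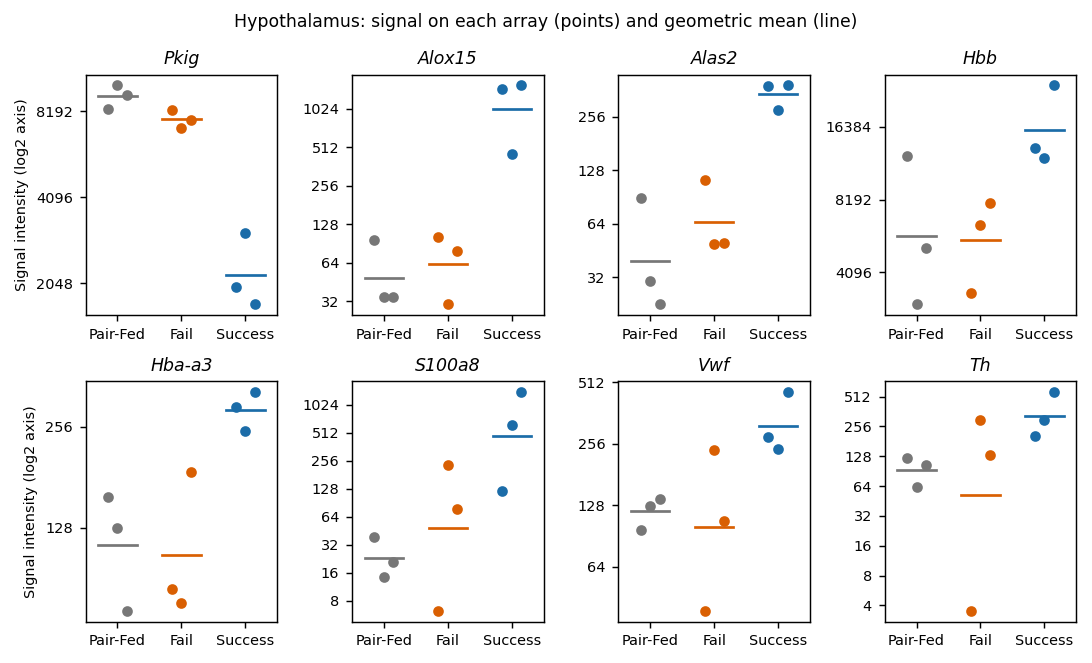
Signal intensity on each of the 9 hypothalamus arrays (points, log2 axis) and the geometric mean of each group (line) for Pkig, Alox15, 3 red cell genes, S100a8, Vwf and Th. For Pkig, Alox15 and Alas2 the 3 RYGB-Success arrays lie apart from both other groups, whereas S100a8 and Th overlap between RYGB-Success and RYGB-Fail.

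Below these genes the ranking held no further call, and the adjusted p from limma was 0.784 for every other gene among the 20 that lead it. On the higher side were Fam20c, a kinase of secreted proteins, Acer2, a ceramidase of the Golgi, Esf1, a nucleolar protein of ribosomal RNA processing, Senp1, a protease that removes SUMO, the phosphatase Ptp4a3, Gpatch4, and Fpgs, which adds glutamate to folate. Fam20c read 766, 548 and 553 in RYGB-Success and 143, 388 and 213 in RYGB-Fail (1.43 ± 0.33). Acer2 read 312, 538 and 1586 against 91.1, 216 and 223 (1.98 ± 0.51), or 1.32 without RYGB-Success replicate 3, and a further probe set of the gene gave 1.18. Senp1 gave 2.23 ± 0.61 on a dim probe set, at 11.2 to 48.0 in RYGB-Fail, while its brighter probe set gave 0.037.

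On the lower side stood Bloc1s2, Dhx58, Spast, Ipo8, Rab7b, Mxd1, Rprml, Sox11 and Ccdc71l. Bloc1s2, a subunit of a complex that builds lysosome-related organelles, read 822, 1403 and 491 in RYGB-Success and 2807, 2031 and 2347 in RYGB-Fail (-1.52 ± 0.31). Sox11, a transcription factor of developing neurons, read 438, 1069 and 219 against 1464, 1691 and 1406 (-1.70 ± 0.41). Both were lowest on RYGB-Success replicate 3, without which each change was -1.15, and both passed when replicate 2 of that group was left out. Spast, the microtubule-severing enzyme spastin, gave -1.35 ± 0.29 and, on a further probe set, -0.43. Rab7b, a small GTPase of endosomes, gave -1.44 ± 0.34. Mxd1, a repressor that pairs with MAX, gave -1.06 ± 0.25 with little spread, at 189 to 228 in RYGB-Success and 398 to 497 in RYGB-Fail. Probe sets of the same gene disagreed in sign for 3 of these genes. A probe set of Rab7b too dim to be tested gave 0.39. Dhx58, a sensor of viral RNA, gave -1.67 on 1 probe set and 0.66 and 0.064 on others, and the nuclear import receptor Ipo8 gave -1.76 on a dim probe set and 0.17 on a brighter one.

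Among feeding genes, no gene passed. Pmch, the precursor of melanin-concentrating hormone, read 10581, 9914 and 20005 in RYGB-Success, 9183, 8492 and 5420 in RYGB-Fail, and 4391, 5111 and 2101 in Pair-Fed. The 3 groups did not overlap, but the step from RYGB-Fail to RYGB-Success was 0.77 ± 0.34 (limma, adjusted p = 0.784), or 0.45 without RYGB-Success replicate 3. Hcrt, the orexin precursor, read 644, 271 and 657 in RYGB-Success and 168, 526 and 121 in RYGB-Fail (1.14 ± 0.49), so that RYGB-Fail replicate 2 lay above RYGB-Success replicate 2. The change was 1.77 without RYGB-Fail replicate 2 and 0.71 without RYGB-Fail replicate 3. Both operated groups lay above Pair-Fed, at 69.0, 48.0 and 51.7, with a change of 3.13 for RYGB-Success (adjusted p = 0.0887) and 1.99 for RYGB-Fail (adjusted p = 1.0). Over the 6 tested genes of the orexin and melanin-concentrating hormone system, 4 were higher in RYGB-Success, with a median change of 0.14. After centring each array on its median, that value was 0.014.

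The arcuate genes went both ways. Npy, the neuropeptide that most strongly drives feeding, read 1118, 722 and 605 in RYGB-Success and 985, 658 and 1230 in RYGB-Fail (-0.24 ± 0.33, or -0.031 without RYGB-Fail replicate 3). Cartpt, which encodes an appetite-suppressing peptide, read 1399, 799 and 1471 against 1664, 1723 and 672 (-0.076 ± 0.40), with either sign when 1 array was left out. Lepr, the leptin receptor, gave -0.022 ± 0.60, and Mc4r, the melanocortin receptor through which Pomc products reduce feeding, gave -0.92 ± 0.55, both on dim probe sets. Mc4r changed by -0.48 without RYGB-Fail replicate 1, and a further probe set of Lepr gave 0.70. Of the 22 genes listed for arcuate feeding and the melanocortin pathway, 19 were on the array and 15 were tested. Of these, 7 were higher and 8 lower in RYGB-Success, with a median change of -0.022 and no call. Pomc was under the filter, at geometric means of 12.1, 7.7 and 8.3 in RYGB-Success, RYGB-Fail and Pair-Fed, so that its change was not tested. The leptin feedback gene Socs3 was likewise dim, at 8.7, 5.3 and 4.3. Of 21 tested genes of leptin and cytokine signalling, 14 were higher in RYGB-Success, with a median change of 0.17 and no call. After centring each array on its median, that value was 0.043.

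Among neurosecretory genes, all but Crh and Npvf overlapped between the operated groups. Oxt, the oxytocin precursor, read 5588, 1802 and 4906 in RYGB-Success and 3974, 3424 and 1269 in RYGB-Fail (0.51 ± 0.60). Avp, the vasopressin precursor, gave 0.30 ± 0.48. Neither had a settled direction: Oxt was -0.008 without RYGB-Fail replicate 3, and Avp was -0.26 without RYGB-Success replicate 3. The stress hormone gene Crh gave 0.53 ± 0.31 and was higher on all 3 RYGB-Success arrays, at 233 to 357 against 151 to 207, and without replicate 3 the change was 0.33. Trh, which drives the thyroid axis, gave 0.31 ± 0.34, or 0.029 without RYGB-Success replicate 1. Sst, the precursor of somatostatin, gave -0.14 ± 0.38, with either sign when 1 array was left out. Npvf, the precursor of RFamide-related peptides, had the lowest p-value of this list, with 225, 163 and 224 in RYGB-Success, 123, 106 and 108 in RYGB-Fail and 66.7, 55.5 and 70.2 in Pair-Fed (0.85 ± 0.33, adjusted p = 0.784 in limma). The 3 groups were thus fully ordered for Npvf as they were for Pmch. Of 14 genes tested in this list, 9 were higher in RYGB-Success, with a median of 0.31.

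Other peptide genes and markers of recent neuronal activity held no call. Gal, the precursor of galanin, gave 0.64 ± 0.36, or 0.36 without RYGB-Success replicate 3 and 0.38 without RYGB-Fail replicate 3. Vip, a peptide of clock neurons, gave 0.26 ± 0.23, or 0.16 without RYGB-Success replicate 1. Cnr1, the cannabinoid receptor, gave -0.50 ± 0.26, or -0.24 without RYGB-Fail replicate 3 and -0.31 without RYGB-Success replicate 3. A dimmer probe set of Cnr1 gave 1.27. Fos, an early gene of neuronal activity, gave -0.097 ± 0.41, with RYGB-Success replicate 3 highest of all at 1714 and replicate 1 lowest at 444. A probe set of Fos too dim to be tested gave 1.55. Of 25 immediate early genes tested, 12 were higher in RYGB-Success. Nr4a3, a nuclear receptor of this class, had the lowest p among them, with 1391, 1051 and 740 in RYGB-Success and 1762, 1422 and 2823 in RYGB-Fail (-0.90 ± 0.30). Other probe sets of Nr4a3 gave -0.51 and, where too dim to be tested, 0.029.

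**Figure D4:**
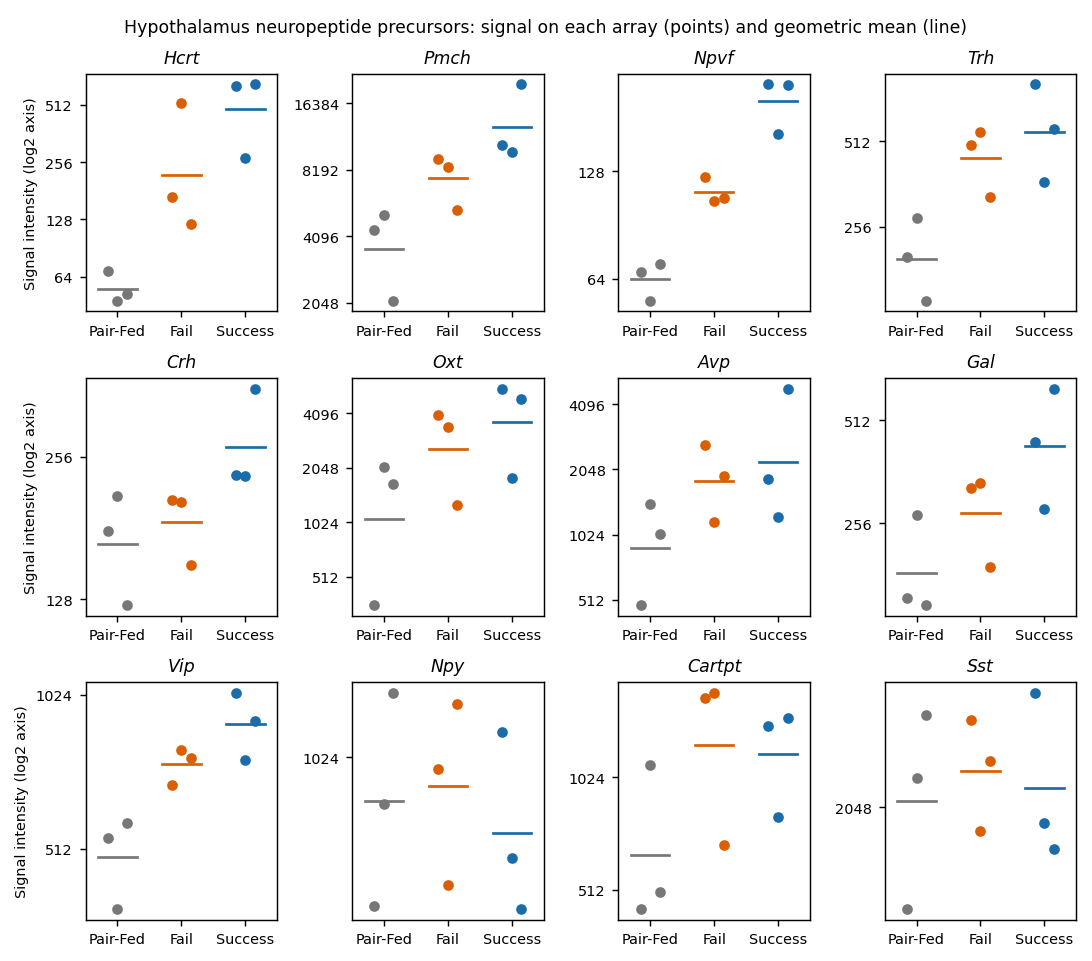
Signal intensity on each hypothalamus array (points, log2 axis) and group geometric mean (line) for 12 neuropeptide precursor genes in Pair-Fed, RYGB-Fail and RYGB-Success. Pmch and Npvf are ordered Pair-Fed, RYGB-Fail, RYGB-Success without overlap, while Npy, Cartpt and Sst overlap between all 3 groups.

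Across all 45 gene lists, 714 genes were tested of 859 on the array and 1 of them, Pkig, passed. An unadjusted p under 0.05 was reached by 49 (6.86%) of the listed genes, next to 617 of all 10438 genes (5.91%), with 224 higher (2.15%) and 393 lower (3.77%). In this share the listed genes were therefore close to the background, but not in direction. Of the listed genes with an unadjusted p under 0.05, slightly more were higher than lower, whereas over all genes more were lower. That difference in direction was not tested, and the lists were chosen with earlier results of these data known. The quartiles of all genes tested were -0.233 and 0.238. Centring each array on its median moved the median change of all probe sets from 0.014 to -0.11 and the share of higher among those with an unadjusted p under 0.05 from 37.1% to 11%, so that list medians within about that shift of 0 have no settled direction.

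Genes of glucose use were a little higher in most members. Of 21 genes of glycolysis and glucose transport, 17 were higher in RYGB-Success, with a median of 0.17, or 0.042 after median centring, and no call. Slc2a1, the glucose transporter of the blood-brain barrier, read 8244, 12514 and 17474 in RYGB-Success and 7342, 8606 and 8228 in RYGB-Fail (0.60 ± 0.25). Aldoc, an aldolase of astrocytes, gave 0.45 ± 0.19 and the isomerase Gpi 0.56 ± 0.23. All 3 were highest on RYGB-Success replicate 3, and without it the changes were 0.34, 0.25 and 0.32. Of 13 hypoxia targets, a list that also holds Slc2a1, 12 were higher, with a median of 0.19, or 0.069 after median centring. The respiratory chain list had 39 of 65 members higher, with a median of 0.096 that turned to -0.028 after median centring. Of its members, 12 were higher without overlap and 1 lower (6.04% and 4.79% over all genes). In limma, however, 1 member was higher and 2 were lower at an unadjusted p under 0.05 (2.15% and 3.77% over all genes). Values in this list were mixed, with Ndufa1 at 0.67 ± 0.24 and Atp5f1d at -0.86 ± 0.33, or 0.44 and -0.42 without RYGB-Success replicate 3. Of 29 proteasome subunit genes, 22 were higher, with a median of 0.14, or 0.015 after median centring. Psmb5, a catalytic subunit, went the other way at -0.84 ± 0.31, or -0.40 without RYGB-Success replicate 3. Further probe sets of Psmb5, too dim to be tested, gave 0.70 and 1.90. Genes of insulin, mTOR and AMPK signalling (13 of 32 higher, median -0.022), fatty acid metabolism (13 of 25, 0.003) and cholesterol synthesis (11 of 19, 0.038) had medians at the background. The fatty acid list also holds Alox15 (4.01). In limma, 2 of its 25 members were higher and 3 lower at an unadjusted p under 0.05, against 2.15% and 3.77% of all genes.

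Synaptic and hormone-responsive lists held a few genes of low p and no call. Grm5, a metabotropic glutamate receptor, read 4430, 2685 and 2012 in RYGB-Success, 6162, 4936 and 6188 in RYGB-Fail and 6285, 7585 and 8363 in Pair-Fed (-0.99 ± 0.25). A probe set of Grm5 too dim to be tested gave 1.18. Of 31 glutamate receptor and postsynaptic genes, 11 were higher, with a median of -0.17, and Dlg4, which encodes the scaffold PSD-95, gave 0.51 ± 0.21, or 0.28 without RYGB-Success replicate 3, and -0.16 on a dimmer probe set. In the GABA list, 8 of 14 genes were higher, with a median of 0.070 that turned to -0.054 after median centring. Gabre, an epsilon subunit of the GABA receptor, read 193, 158 and 212 against 91.0, 106 and 81.9 (1.01 ± 0.33). Th, the first enzyme of dopamine synthesis, gave 2.65 ± 1.14, which rested on a single RYGB-Fail array that read 3.53 while the other 2 read 301 and 132, and without that array it was 0.71.

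Targets of peripheral hormones gave mixed values. Crym, which binds thyroid hormone inside cells, read 2407, 1497 and 803 in RYGB-Success and 4192, 1475 and 4470 in RYGB-Fail (-1.09 ± 0.42, or -0.67 without RYGB-Success replicate 3), and 4 of 10 thyroid-related genes were higher, with a median of -0.28. Mt2A, a metallothionein induced by glucocorticoids and metals, read 2747, 4146 and 11272 against 2617, 2347 and 2878 (0.95 ± 0.38), and without RYGB-Success replicate 3 the change was 0.37. Nr3c2, the mineralocorticoid receptor, gave -0.59 ± 0.25. Of 15 glucocorticoid-related genes, 11 were higher, with a median of 0.17, or 0.049 after median centring. Interferon response genes had 5 of 15 members higher and a median of -0.25. Psmb8 gave -1.49 ± 0.60 and Mx2 -1.18 ± 0.52, both with overlapping groups, and without RYGB-Success replicate 3 they gave -0.81 and -0.54. Mx2 gave -1.84 without RYGB-Success replicate 2.

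Markers of brain regions and cell types were compared because a dissected hypothalamus can include neighbouring tissue. All 12 striatum markers were lower in RYGB-Success, with a median of -0.34, but none had an unadjusted p under 0.05 and their mean level overlapped, at 9.81, 9.38 and 8.62 in RYGB-Success and 10.50, 8.35 and 10.19 in RYGB-Fail. Of 9 thalamus markers, 8 were higher, with a median of 0.39 and levels of 11.22, 11.44 and 11.59 against 11.06, 11.45 and 10.79. Cortex markers were higher in 2 of 10, with a median of -0.19. With the level of cortex and striatum markers as a covariate, Pkig changed by -1.77 ± 0.23 and its adjusted p from limma was 0.0504. With the choroid plexus level as a covariate it changed by -1.78 (adjusted p = 0.0367).

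Endothelium markers were higher in 11 of 13, with a median of 0.45. Their mean level overlapped, at 8.39, 9.04 and 9.13 in RYGB-Success and 8.07, 8.91 and 8.35 in RYGB-Fail. The list was led by Vwf, the von Willebrand factor of vessel walls, at 275, 241 and 459 in RYGB-Success and 39.0, 238 and 108 in RYGB-Fail (1.64 ± 0.52, or 0.96 without RYGB-Fail replicate 1). Esam, an endothelial adhesion molecule, gave 0.82 ± 0.33. Microglia markers were higher in 3 of 12, with a median of -0.18, and ependyma markers in 1 of 9, with a median of -0.14. Tekt1, a protein of cilia, gave -1.71 ± 0.57, or -0.99 without RYGB-Success replicate 3, which read 14.5 for it. Markers of neurons (9 of 15 higher), astrocytes (10 of 13) and oligodendrocytes (9 of 15) had medians of 0.12, 0.17 and 0.12. After median centring these were -0.000, 0.048 and -0.007. The part of tissue composition in the single-gene values was not tested beyond the covariates named.

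**Figure D5:**
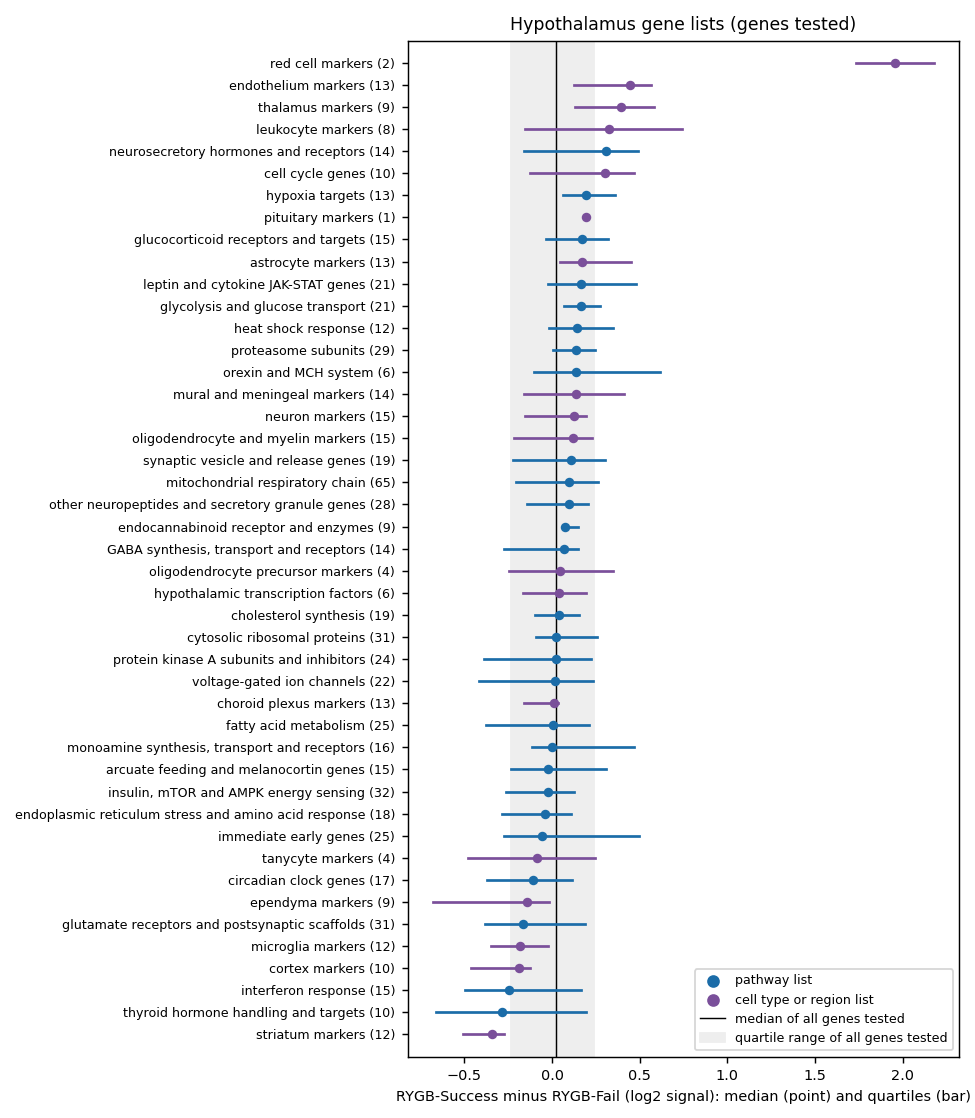
Median log2 change of RYGB-Success minus RYGB-Fail (point) and the quartiles (bar) of each gene list in hypothalamus, with the number of genes tested in parentheses, pathway lists in blue and cell type or region lists in purple. The vertical line marks the median of all genes tested (0.025) and the grey band the range between their quartiles (-0.233 to 0.238), which describes single genes and not medians of lists. The red cell list (2 genes) lies farthest right at 1.96 and the striatum list farthest left at -0.34.

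The Pair-Fed arrays place the difference between the operated groups. Because both comparisons with Pair-Fed share those 3 arrays, each gene's values are given side by side. RYGB-Success differed from Pair-Fed in 2 probe sets (0.0107% of those tested), Pkig at -2.07 (limma, adjusted p = 0.00223) and Alox15 at 4.39 (adjusted p = 0.0214). RYGB-Fail differed from Pair-Fed in 0 probe sets (0.0%) by limma, with 445 at an unadjusted p under 0.05, and gave -0.27 for Pkig and 0.37 for Alox15. The first count was 65 without RYGB-Success replicate 2, 5 without RYGB-Fail replicate 2, and 1 without RYGB-Success replicate 3 or Pair-Fed replicate 2 or 3. For the red cell gene Alas2 the values were 3.13 and 0.73. For Pmch they were 1.83 and 1.06, for Npvf 1.66 and 0.81, and for Grm5 -1.35 and -0.36. For these genes RYGB-Fail lay between the other groups without overlap. For Pkig and Alox15 it lay near Pair-Fed, although every RYGB-Fail array of Pkig read lower than every Pair-Fed array.

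In subcutaneous fat of the same treatment groups, Alox15 and the red cell genes had the same order of the operated groups. Alox15 read 923, 562 and 2735 in fat of RYGB-Success and 77.0, 42.2 and 382 in fat of RYGB-Fail (3.39 ± 0.85, adjusted p = 0.711 in limma). Hbb read 17093, 14231 and 37918 against 6625, 2562 and 3805 (2.39 ± 0.42), and Alas2 gave 3.82 ± 1.00. Pkig read 7208, 2710 and 8057 in fat of RYGB-Success and 10285, 7607 and 7036 in fat of RYGB-Fail, so that the groups overlapped (-0.60 ± 0.40, adjusted p = 0.895). An interaction term compared the change in the 2 tissues for the 15531 probe sets bright enough in each. It was -1.21 ± 0.47 for Pkig (adjusted p = 0.732) and 0.63 ± 1.11 for Alox15 (adjusted p = 0.932), and 0 probe sets passed (0.0%) by limma, with 1002 at an unadjusted p under 0.05. The number that passed was 132 without the third fat array of RYGB-Fail, and 22 without the first fat array of RYGB-Success. That RYGB-Fail array had the highest median signal of all 18 arrays, at 288. The labels do not say whether fat and hypothalamus samples of the same number came from the same rats.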

How the data were processed

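Total RNA was extracted with Qiagen RNeasy, amplified with Nugen WT Ovation and labelled with biotin, per the labels' protocols. For every probe set the authors deposited a linear intensity. The submitters' processing notes name MAS5 and GCOS, with versions not given in the sources examined. Each array's deposited intensities had a trimmed mean near 500, so they had been scaled.

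Log2 of the intensity was taken with no pseudocount. Of 31042 probe sets that are not array controls, the upper 60% by mean log2 over the 9 hypothalamus arrays (18625 probe sets, 10438 genes) entered a model of 3 group means (lmFit and eBayes with trend in limma 3.58.1, under R 4.3.3), with Benjamini-Hochberg adjustment over all of them and a threshold of 0.05. Tests are two-sided. The interaction with fat used all 18 arrays. Symbols came from the platform annotation: 20826 probe sets had 1 symbol, 436 had several and 9780 had none, and only those with 1 were named. The brightest probe set stood for a gene in lists. The fit was tested on simulated data. Arrays limit precision by their number.

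Named genes were the 10 largest increases and 10 largest decreases that passed without overlap, filled by the lowest unadjusted p among genes with non-overlapping groups and at least a 1.5-fold change; up to 3 members of each list with an unadjusted p under 0.05; and genes of feeding biology whatever their result. The restriction to p under 0.05 in lists and the protein kinase A family were added after values were seen. Members and lists were chosen with earlier results of these data known. Alternatives were 12 planned settings, leaving out each array and, added after seeing the data, the red cell level as a covariate and a block across tissues. Tables were made in pandas 2.3.3 under Python 3.11.15, and plots in matplotlib 3.10.9.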

Additional observations from a re-analysis of the deposited data

Results flagged for a closer look

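Gabre, the epsilon subunit of the GABA receptor, differed in direction between tissues. In hypothalamus its 3 RYGB-Success arrays (193, 158 and 212) lay above the 3 RYGB-Fail arrays (91.0, 106 and 81.9), a log2 change of 1.01 ± 0.33 (limma, adjusted p = 0.784). In fat the 3 RYGB-Success arrays (74.7, 77.8 and 9.61) lay under the 3 RYGB-Fail arrays (92.6, 120 and 409). The probe set was under the filter in fat, and the difference between tissues was not tested.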

How the results depend on the processing

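The comparison of RYGB-Success with RYGB-Fail called 1 probe set, and between 0 and 6 over the alternatives. It called 2, Alox15 and Pkig, with a pseudocount of 50, no filter, quantile normalization, median centring or the 3' to 5' ratio as a covariate. It called 6 with array weights, and 0 with no mean-variance trend, with only the arrays compared, and with the cortex and striatum level or the red cell level as a covariate. Leaving out each array gave 0 to 6. RYGB-Success against Pair-Fed called 2, and 1 with the upper 40% filter or the 3' to 5' ratio, 6 with median centring or array weights, 0 with no trend or the red cell level, 5 with only the arrays compared, 4 with the choroid plexus level, and 1 to 65 leaving out each array. RYGB-Fail against Pair-Fed called 0, and 3 with the choroid plexus level. The interaction with fat called 0, 4 with array weights, and 0 to 132 leaving out each array. The causes were not tested.

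Same-numbered arrays of different groups did not deviate together (9 pairs, correlations of -0.163 to 0.07). This check showed no pairing of hypothalamus arrays by number, but with so few arrays in a group it cannot settle whether they were paired. With a replicate block, RYGB-Success against RYGB-Fail called 2 probe sets (Alox15 and Pkig) and the interaction called 1. Between tissues, 4 of 9 pairs of the same group and number correlated above 0.1 (-0.059 to 0.204), and 1 of 18 with different numbers did. With those pairs as a random block, added after seeing the data, the interaction called 0.

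Of 84 named genes, 17 changed sign in at least 1 alternative. In 11 of them the change was smaller than its SE as reported, and 9 of these changed sign on leaving out an array. The other 6 changed sign only with the red cell level as a covariate, which was added after seeing the data: Hba-a3 (-0.55), Hbb (-0.86), Th (-1.59), Cryab (-0.032), Prkar2b (0.22) and Vip (-0.066). Hbb is part of that level. Probe sets near the lowest mean signal tested (52.7) scatter most on a log scale.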
